A study of Mus musculus with 5 samples.

Results

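The genes described here encode 9 enzymes that reshape fatty acids after their synthesis: the desaturases Scd1, Scd2, Fads1, Fads2 and Fads3, and the elongases Elovl1, Elovl5, Elovl6 and Elovl7. They were taken as every probe set of an Affymetrix mouse array whose only gene symbol is one of these names, which gave 28 of 34945 probe sets with 1 symbol, and 9 of 18193 genes. RNA had been extracted from splenic CD4 T cells of the BALB/c strain and hybridized to 5 arrays, a single array per group: TOFA effector Th1 cells, Rap effector Th1 cells, memory Th1 cells, control effector Th1 cells and naive CD4 T cells. TOFA inhibits acetyl-CoA carboxylase, the enzyme that makes malonyl-CoA, and Rap is used here as the labels write it, unexplained. Doses of TOFA and of Rap, and the number of mice behind an array, were not among the labels read here. The labels attach 1 culture protocol to all 5 samples (5 days of Th1 stimulation in which IL-2 was at 15 ng/ml and IL-12 at 10 ng/ml), but only the 3 effector samples are described as cultured.

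Fatty acid synthase makes palmitate, a saturated fatty acid, from malonyl-CoA and acetyl-CoA. Elongases of the endoplasmic reticulum add carbon pairs to such chains, again from malonyl-CoA, and each elongase prefers certain chains. Desaturases insert double bonds, with electrons passed on by cytochrome b5 and its reductase. The stearoyl-CoA desaturases make monounsaturated fatty acids for membrane phospholipids and stored lipid, while the Fads enzymes work on polyunsaturated chains or sphingoid bases taken up or made by the cell. Many of these genes are known targets of the transcription factors SREBP and LXR, which respond to sterols, insulin and growth signals. Dividing T cells build new membrane and are known to need fatty acid synthesis for it.

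RefSeq's promoter table (build GRCm38.p6, from 250 bases before to 50 after a gene's start) matched 6 of the 9 members, namely Fads2, Fads3, Elovl1, Elovl5, Elovl6 and Elovl7. The windows of 3 of them are shown because their genes represent the patterns described below: Fads2 was higher in cultured cells and lower with Rap, Elovl6 was higher in cultured cells and under 2-fold with Rap, and Elovl5 was under 2-fold apart in all 6 comparisons. Each is written 5′ to 3′ on the gene's strand, and capitals mark any match on either strand to CCAAT (the letters bound by NF-Y), CACGTG (an E-box), GGGCGG (a GC box) or TCACNCCAC (a sterol response element of SREBP).
Fads2, chr19:10101454-10101753, minus strand: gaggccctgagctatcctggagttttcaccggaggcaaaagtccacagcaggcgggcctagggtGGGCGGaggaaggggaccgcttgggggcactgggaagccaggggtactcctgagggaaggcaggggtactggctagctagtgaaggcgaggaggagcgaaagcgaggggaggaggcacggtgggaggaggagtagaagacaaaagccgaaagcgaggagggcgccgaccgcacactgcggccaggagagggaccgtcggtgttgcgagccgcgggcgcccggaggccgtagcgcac
Elovl6, chr3:129532136-129532435, plus strand: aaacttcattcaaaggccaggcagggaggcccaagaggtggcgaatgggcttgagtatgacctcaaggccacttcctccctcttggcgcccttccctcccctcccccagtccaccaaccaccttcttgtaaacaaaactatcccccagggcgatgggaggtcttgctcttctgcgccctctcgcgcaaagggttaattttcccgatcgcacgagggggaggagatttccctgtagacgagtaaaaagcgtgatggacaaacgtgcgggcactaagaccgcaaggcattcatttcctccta
Elovl5, chr9:77917115-77917414, plus strand: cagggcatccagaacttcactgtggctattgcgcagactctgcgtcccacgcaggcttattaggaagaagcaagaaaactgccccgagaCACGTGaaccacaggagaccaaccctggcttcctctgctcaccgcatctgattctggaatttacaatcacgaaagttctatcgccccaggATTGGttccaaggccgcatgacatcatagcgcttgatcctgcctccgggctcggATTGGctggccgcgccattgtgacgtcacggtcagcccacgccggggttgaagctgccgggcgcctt

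The Elovl5 window held CCAAT at 2 places on the opposite strand (printed as its complement ATTGG) and CACGTG at 1 place. The Fads2 window held GGGCGG once, from -186 to -181 counted from the first base of the gene as 0, and no CCAAT. None of the 4 motifs was in the Elovl6 window. Among all 32851 windows of this length, 37.4% held CCAAT, 7.15% CACGTG, 35.7% GGGCGG and 1.24% TCACNCCAC. The last was in 0 of the 7 windows of members (Elovl1 has 2). A match is a description of the letters and shows no binding. In the same assembly, Fads3, Fads2 and Fads1 follow each other on chromosome 19 with no other protein-coding gene between them, and Scd2 lies next to Scd3 and Scd4 on that chromosome. Of this cluster Scd4 also neighbours Scd1, and whether Scd probe sets read more than 1 of these related genes was not tested.

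Signals below are on the linear scale after quantile normalization, which gives all arrays the same distribution. A floor was set at the 40th percentile, which is a signal of 43.4, before differences were taken, and genes at the floor on both arrays were not compared. Differences are log2 of the first named array minus the second, and a gene is called higher or lower from 2-fold. Replicate arrays are lacking, so neither p-values nor errors between samples are given. The internal measure of error is how far probe sets of 1 gene differ from each other, taken over the whole array, an SD that lay between 0.34 and 0.66 on the log2 scale in the 6 comparisons. It leaves out differences between cultures or arrays. Of the 28 probe sets, 25 were above the floor on at least 1 array and 18 on all 5.

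Markers of T cells were present on every array, with Cd3d (a chain of the T cell receptor complex) at 14083 in TOFA effector, 15728 in Rap effector, 17052 in memory, 16076 in control effector and 21591 in naive cells. Other spleen cells differed between arrays. The summed signal of 11 B cell markers was 2468 in TOFA effector, 2848 in Rap effector, 56085 in memory, 2091 in control effector and 34026 in naive cells. For 11 myeloid markers it was 650 in TOFA effector, 357 in Rap effector, 74109 in memory, 395 in control effector and 6199 in naive cells, with 6, 2, 11, 4 and 10 of the markers above the floor. Of these markers, Lyz2 and S100a8 were below the floor on all 3 effector arrays, at 14766 and 6857 in memory cells, and at 811 and 2917 in naive cells. The memory and naive arrays thus had higher B cell and myeloid marker sums than the 3 effector arrays. Of the B cell sums, Ighm alone was 28141.5 in memory and 27391 in naive cells. The other B cell markers were each higher in memory than in naive cells, among them Ms4a1 (11123.5 against 2406) and Cd79b (6089 against 1338). In such bulk samples, other proportions of cell types and other RNA levels per cell cannot be told apart. Dendritic cell markers summed to 1347 in memory cells and to between 124 and 286 on the other arrays. The 2 CD8 T cell markers summed to 1072 in memory, 703 in naive and between 317 and 400 in effector cells. Erythroid markers summed to 947 in memory cells and to between 72.8 and 137 on the other arrays. NK cell markers summed to between 63.9 and 153 on the 5 arrays. As a sign of RNA quality, 3' to 5' control ratios ranged over 0.832 to 0.918 (Gapdh) and 1.26 to 1.45 (beta-actin).

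**Figure D1:**
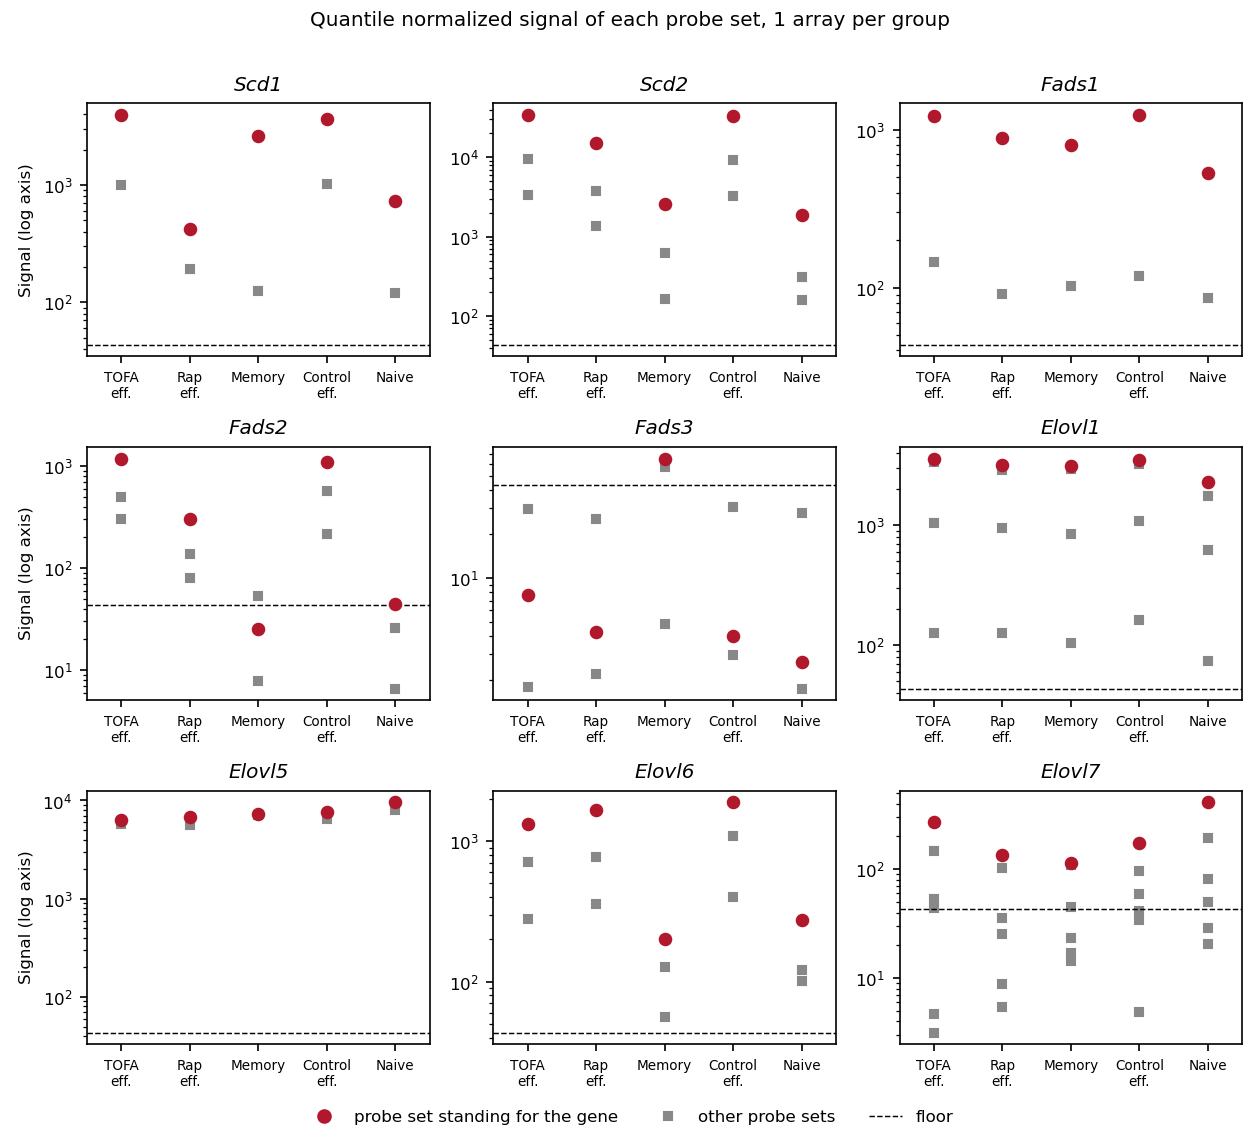
Signal of each of the 28 probe sets on the 5 arrays after quantile normalization, on a log axis with its own range for each gene. Red circles are the probe set standing for the gene, grey squares its other probe sets, and the dashed line the floor of 43.4. Scd1, Scd2 and Fads2 were at 425, 15290.5 and 300 in the Rap effector array, each below the TOFA effector and control effector arrays.

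Control effector cells were set against naive cells to see how these genes differed after Th1 culture. Of 8 members compared, 5 had signals in control effector cells that were at least 2-fold higher and 1 was lower, where 15.9% of the 13070 genes compared were higher and 11.4% lower. The median difference of the members was 1.77, against 0.04 over all genes. The genes that were higher were Fads2, Scd2, Elovl6, Scd1 and Fads1.

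Fads2, the first desaturase of polyunsaturated fatty acid synthesis, had a signal of 1187 in TOFA effector, 300 in Rap effector, 25.2 in memory, 1096 in control effector and 44.2 in naive cells. The naive value lies just above the floor and the memory value under it. The difference between control effector and naive cells was 4.63, a 24.8-fold higher signal, and Fads2 held place 89 from the top among all genes compared. The size depends on the floor: it was 2.86 with the floor at the 60th percentile and 3.70 with an added constant. Its other probe sets differed by 2.31 and 3.71, with the naive array at the floor on both.

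Scd2, the stearoyl-CoA desaturase that is widely expressed outside the liver, stood at 34547 in TOFA effector, 15290.5 in Rap effector, 2574 in memory, 33506 in control effector and 1878 in naive cells. The 3 effector arrays lay above both others. The 3 probe sets of Scd2 differed by 4.16, 4.36 and 4.90 between control effector and naive cells. Scd1, the main isoform of liver and fat, had signals of 3976 in TOFA effector, 425 in Rap effector, 2608 in memory, 3622 in control effector and 731 in naive cells. Its second probe set gave 992 in TOFA effector, 191 in Rap effector, 125 in memory, 1024 in control effector and 119 in naive cells. On both probe sets TOFA effector and control effector cells lay above naive cells (differences of 2.31 and 3.10 between control effector and naive). The places of the memory array, and of Rap effector against naive, differed between the probe sets.

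Elovl6, which extends palmitate to stearate, the main substrate of the stearoyl-CoA desaturases, had signals of 1315 in TOFA effector, 1671 in Rap effector, 203 in memory, 1886 in control effector and 276 in naive cells. All 3 effector arrays were above memory and naive cells on each of its 3 probe sets, which differed by 1.98, 2.77 and 3.18 between control effector and naive. Fads1, the desaturase that acts after Fads2 and an elongation step, stood at 1222 in TOFA effector, 890 in Rap effector, 801 in memory, 1250 in control effector and 536 in naive cells. It was 2.33-fold higher in control effector cells, while its dimmer probe set differed by 0.45. As the mean of its probe sets Fads1 was at 0.83 and lost the call, which leaves 4 members higher.

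The other elongases were not past 2-fold higher. Elovl5, which extends polyunsaturated chains, had its highest signal in naive cells: 6340 in TOFA effector, 6788 in Rap effector, 7247 in memory, 7674 in control effector and 9557 in naive cells. Its difference between control effector and naive of -0.32 is smaller than the probe set SD of 0.64 for this comparison. Elovl1, which makes very long saturated and monounsaturated chains, was at 3611 in TOFA effector, 3171 in Rap effector, 3100 in memory, 3500 in control effector and 2287 in naive cells. Its 4 probe sets all lay above 0 in control effector against naive cells (0.61 to 1.14), with 1 past 2-fold. That probe set and the one standing for the gene are of the _x_at class, which can match several transcripts. The only Elovl1 probe set outside this class gave 0.79.

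Elovl7, an elongase of saturated chains, was 2.37-fold lower in control effector cells, at 272 in TOFA effector, 135 in Rap effector, 114 in memory, 174 in control effector and 411 in naive cells. That call also rests on a probe set of the _x_at class, and the other 3 probe sets compared gave -0.99, -0.47 and -0.21. B cell and myeloid marker sums fell to 2091 and 395 in control effector cells, against 34026 and 6199 in naive cells, beside the lower Elovl7, and their part in the result was not tested. Fads3, a desaturase of sphingoid bases, was under the floor on all 4 arrays other than memory and was not compared here.

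The comparison of TOFA effector with control effector cells asks how these genes differed with TOFA. It is an inhibitor of acetyl-CoA carboxylase, the source of the malonyl-CoA that elongases use. The arrays do not measure how far the enzyme was inhibited in these cells. Of 8 members compared, 0 were at least 2-fold higher and 0 lower, where 2.47% of 12850 genes were higher and 2.15% lower. The members' median was 0.04, against 0.01 over all genes. For 6 of the 8 the difference was within the probe set SD of 0.37.

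The stearoyl-CoA desaturases were nearly level. The 3 probe sets of Scd2 differed by 0.03, 0.04 and 0.06 between TOFA effector and control effector, and those of Scd1 by 0.13 and -0.05. Fads2 differed by 0.12 (probe sets from -0.18 to 0.49) and Fads1 by -0.03. Elovl1 differed by 0.04 and Elovl5 by -0.28. With no replicate, the range that a repeat culture would give around these values is unknown.

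Elovl6 was the member with the lowest difference, -0.52, and its probe sets gave -0.62, -0.53 and -0.52. All 3 thus lay below 0 by more than the SD of 0.37, which leaves out differences between cultures or arrays. The difference stayed under 2-fold (1.43-fold), at place 1278 from the lowest among 12850 genes. It lay within the 5th to 95th percentile of all genes (-0.73 to 0.77). Elovl7 had the highest, 0.65, with its other probe sets at 0.59, 0.31 and -0.43, so that the probe sets did not go the same way. As the mean of its probe sets, the difference of Elovl7 was -0.01. Myeloid markers above the floor numbered 6 of 11 on the TOFA effector array and 4 on the control effector array.

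**Figure D2:**
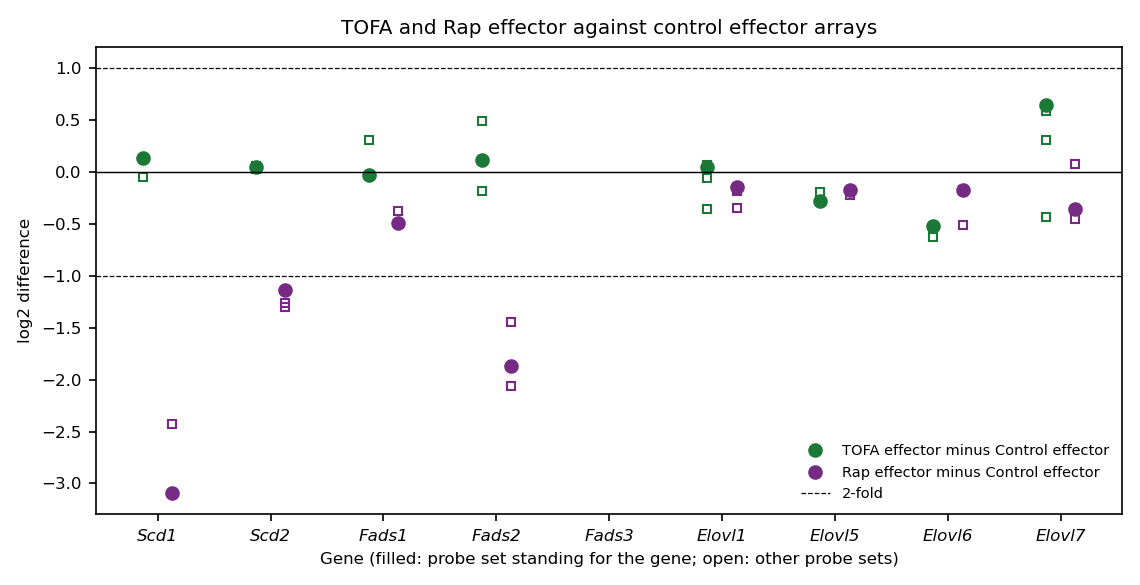
Log2 difference of TOFA effector (green) and Rap effector (purple) minus control effector cells for each member. Filled circles are the probe set standing for the gene, open squares its other probe sets, and dashed lines 2-fold. Scd1, Scd2 and Fads2 lie below the lower dashed line on every probe set with Rap, at -3.09, -1.13 and -1.87 on the main ones, and between the lines with TOFA. Fads3 was under the floor and has no value.

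The Rap effector cells were set against the same control array. Of 8 members compared, 3 were at least 2-fold lower and 0 higher, where 3.91% of 12851 genes were lower and 1.82% higher. All 8 lay below 0 (7 without _x_at and _s_at probe sets, where Elovl7 was above 0), and the median was -0.42, against 0.00 over all genes. Of the 22 probe sets compared, 21 lay below 0, where 49.1% of all probe sets did, and 8 were at least 2-fold lower, where 3.59% of all were. Those 8 were every probe set of Scd1, Scd2 and Fads2. Probe sets of the same gene are repeat readings of the same pair of arrays, so these counts add no independent measurement.

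Scd1 was 8.52-fold lower (425 against 3622), the 4th lowest difference of all 12851 genes, and its second probe set differed by -2.42. On the brighter probe set the Rap effector signal of 425 lay below the naive signal of 731. On the dimmer it lay above, at 191 against 119. Fads2 was 3.65-fold lower, at place 66 from the lowest, with its other probe sets at -1.45 and -2.06. Scd2 was 2.19-fold lower, at place 349, with its other probe sets at -1.26 and -1.30. With the values as deposited Scd2 was at -1.005, barely past 2-fold. Scd2 and Fads2 in Rap effector cells, at 15290.5 and 300, were lower than in control effector cells and higher than the naive values of 1878 and 44.2.

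The remaining members were under 2-fold. Fads1 differed by -0.49 and -0.37 on its probe sets, and the first exceeds the probe set SD of 0.38. Elovl6 differed by -0.17 on 2 probe sets and -0.51 on the other. Elovl1 gave -0.14, Elovl5 -0.18 and Elovl7 -0.36, all within that SD. Of the other Elovl7 probe sets compared, 1 gave -0.45 and 1 gave 0.08, and without _x_at and _s_at probe sets Elovl7 was at 0.08. The elongase genes were thus within 2-fold of control effector cells on every probe set compared, while Scd1, Scd2 and Fads2 were past it. B cell marker sums were 2848 in Rap effector and 2091 in control effector cells, myeloid sums were 357 and 395, and T cell sums were 49385 and 48595.

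The same members can be read between the TOFA and Rap arrays directly. Of 8 compared, 4 were at least 2-fold higher in TOFA effector cells and 0 lower, where 3.28% of 12802 genes were higher and 1.35% lower. The median was 0.73, against 0.02 over all genes. Scd1 was 9.35-fold higher in TOFA than in Rap effector cells, at place 9 from the top, and Fads2 was 3.95-fold and Scd2 2.26-fold higher. Every probe set of these 3 genes was past 2-fold, from 1.18 to 3.23.

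Elovl7 was 2.01-fold higher in TOFA effector cells (272 against 135), but only 1 of its 4 probe sets was past 2-fold, and with the values as deposited, with a floor at the 60th percentile, with an added constant or without _x_at and _s_at probe sets it was under 2-fold. Elovl6 went the other way by -0.35, with its other probe sets at -0.11 and -0.36. With the values as deposited Scd2 was at 0.90, just under 2-fold. This comparison shares its arrays with the preceding ones and adds no independent measurement.

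Memory cells were set against control effector cells and then against naive cells. Against control effector cells, 3 of 9 members were at least 2-fold lower in memory cells and 0 higher, where 14.1% of 13326 genes were lower and 14.5% higher. The median was -0.61, against -0.03 over all genes. Scd2 was 13.0-fold lower (2574 against 33506), Elovl6 was 9.31-fold lower (203 against 1886), and Fads2 was at least 25.3-fold lower, since its memory signal was under the floor. All 9 probe sets of these 3 genes were past 2-fold. With the values as deposited, 1453 genes were lower and 2601 higher in memory cells, against 1873 and 1932 after normalization, and the median of all genes was 0.18. The members then counted 3 lower and 1 higher, the last being Fads3 at 1.03.

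Scd1 differed between its probe sets in memory cells. The brighter gave 2608 in memory, against 3622 in control effector and 731 in naive cells, a difference of -0.47 from control effector. The dimmer gave 125 in memory, against 1024 in control effector and 119 in naive cells, a difference of -3.03. By the mean of both, Scd1 was -1.75 from control effector and counted as lower. Both probe sets are annotated to the same transcript record in the platform's table. Fads3 passed the floor in memory cells alone, at 65.6 on its main probe set and 57.3 on another. The memory array was also the one with myeloid markers at 74109 and B cell markers at 56085, and their part in the Scd1 and Fads3 signals was not tested.

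**Figure D3:**
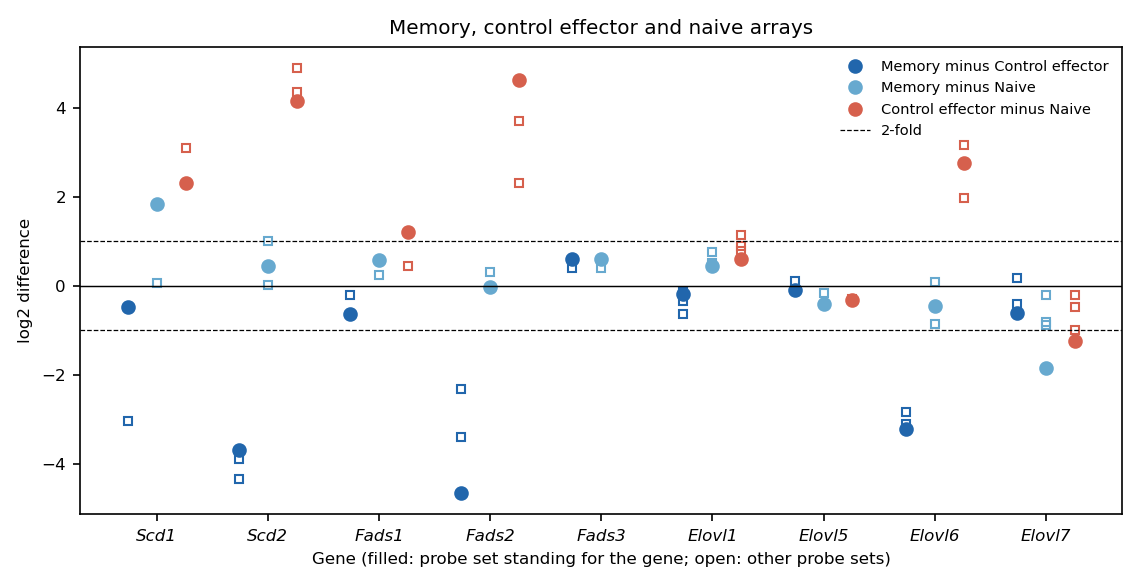
Log2 differences of memory minus control effector (dark blue), memory minus naive (light blue) and control effector minus naive cells (red) for each member. Filled circles are the probe set standing for the gene, open squares its other probe sets, and dashed lines 2-fold. The open square of Scd1 in memory minus control effector lies at -3.03, far from its filled circle at -0.47.

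Against naive cells, 1 of 9 members was at least 2-fold higher in memory cells and 1 lower, where 12.6% of 13082 genes were higher and 4.14% lower. The median was 0.44, against -0.05 over all genes. The higher gene was Scd1 (3.57-fold on the brighter probe set), whose second probe set differed by 0.07, so the call rests on 1 probe set. The lower gene was Elovl7, 3.61-fold lower on its _x_at probe set and -0.81, -0.88 and -0.21 on the others. Scd2 differed by 0.45 with probe sets from 0.02 to 1.01, Fads1 by 0.58, Elovl1 by 0.44, Elovl6 by -0.45 and Elovl5 by -0.40. With the values as deposited, 2075 genes were higher and 344 lower in memory cells, against 1645 and 542 after normalization, and the members counted 2 higher (Scd1 and Fads3) and 1 lower. Myeloid marker sums were 74109 in memory and 6199 in naive cells beside all of these values.

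Other genes of the pathway were read from fixed lists, each only on the probe set standing for the gene. That probe set is of the _x_at class for Hmgcs1 and Acly and of the _s_at class for Hacd1 and Cyb5r3. Of 7 other desaturases and elongases measured, only Degs1, which makes ceramide from dihydroceramide, was above the floor on all arrays, at 4509 in TOFA effector, 4322 in Rap effector, 3826 in memory, 4125 in control effector and 2926 in naive cells. Scd3 was at 8.57 in TOFA effector, 35.8 in Rap effector, 21.9 in memory, 44.8 in control effector and 16.7 in naive cells, under the floor on all but 1 array. No gene of this list was past 2-fold in any of the 6 comparisons, in which between 2 and 5 genes were compared. Over all genes, between 1.35% and 15.9% were called in a given direction. Apart from Degs1, no signal of the list exceeded 64.6 (Elovl4 in Rap effector cells). That is too near the floor of 43.4 for a 2-fold difference.

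Among 11 genes of the elongation cycle and of electron supply compared, 2 were called higher and 0 lower in control effector cells, set against naive cells, a share near the 15.9% of all genes that were higher. They were Hacd1, a dehydratase of the elongation cycle (1540 against 53.0), and Cyb5b, a cytochrome b5 (4072 against 788). In TOFA against control effector cells 1 was higher and 0 were lower, where 2.47% of all genes were higher and 2.15% lower. It was the cytochrome b5 reductase gene Cyb5r1 (3227 against 716). The median of the list was -0.15. In Rap against control effector cells 0 were called, where 3.91% of all genes were lower and 1.82% higher. The median was again -0.15, and Hacd1 (-0.92) and Tecr, the reductase of the last elongation step (-0.31), were furthest from 0. In memory against control effector cells 2 were higher and 2 lower, where 14.5% of all genes were higher and 14.1% lower, so these shares of the list are near the background. Hacd4 was 1347 in memory and 53.4 in control effector cells, Cyb5r1 was 2437 and 716, Hacd1 was 198 and 1540, and Cyb5b was 902 and 4072. Myeloid marker sums were 74109 in memory and 395 in control effector cells, and their part in the result was not tested. Against naive cells 5 were higher in memory cells and 0 lower, where 12.6% of all genes were higher. They were Hacd4, Hacd1, Hsd17b12 (the ketoacyl-CoA reductase of the cycle), Cyb5r1 and Cyb5r3, with differences between 1.04 and 4.24. Beside these stood myeloid sums of 74109 against 6199 and B cell sums of 56085 against 34026, of which Ighm was 28141.5 against 27391. In TOFA against Rap effector cells, Cyb5r1 alone was called (3227 against 758), where 3.28% of all genes were higher and 1.35% lower.

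Of 10 genes of palmitate synthesis and its supply, 7 were called higher and 0 lower in control effector cells, set against naive cells. Over all genes 15.9% were higher and 11.4% lower, and the list median was 1.49. Me1, a malic enzyme that yields NADPH, had the largest difference (1051 against 46.5), followed by the acyl-CoA thioesterase gene Acot7 (3750 against 275). The others were Slc25a1, the citrate carrier, Fasn, Acacb, Acaca and Acly, between 1.13 and 2.39 (Acacb was under the floor in naive cells). In TOFA effector cells 3 were lower than in control effector cells and 0 higher, where 2.15% of all genes were lower and 2.47% higher. They were Acacb (51.6 against 134), the acetyl-CoA synthetase gene Acss2 (440 against 930) and Me1 (520 against 1051), with a list median of -0.57. In Rap effector cells 4 were lower than in control effector cells and 0 higher, where 3.91% of all genes were lower and 1.82% higher. They were Me1 (151 against 1051), Acss2 (185 against 930), Acacb (8.43 against 134, the first under the floor) and Slc25a1 (627 against 1624), with a list median of -0.69. In memory cells 6 were lower than in control effector cells and 0 higher, where 14.1% of all genes were lower and 14.5% higher. They were Me1, Fasn, Acot7, Slc25a1, Acly and Acaca, between -3.30 and -1.07, with a list median of -1.17. Against naive cells 2 of 9 compared were higher in memory cells, Acot7 (1.78) and Me1 (1.20), and 0 lower. Over all genes 12.6% were higher and 4.14% lower. Myeloid marker sums were 74109 in memory, 395 in control effector and 6199 in naive cells, and their part in these memory values was not tested. The TOFA array had 2 of 9 genes compared higher than the Rap array, Me1 (1.79) and Acss2 (1.25), and 0 lower. Over all genes 3.28% were higher and 1.35% lower.

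The regulators of the pathway and targets that report on them were read as a list of 11 genes compared. Srebf1, which encodes the SREBP most tied to fatty acid genes, stood at 4425 in TOFA effector, 2812 in Rap effector, 1890 in memory, 3850 in control effector and 2210 in naive cells. The order of its signals was TOFA effector, control effector, Rap effector, naive and memory, which was also the order of Fads2. Scd2 and Elovl1 differed from it only in the places of memory and naive, and the remaining members had other orders. For Scd2 the first places were nearly level, with TOFA against control effector cells at 0.04, and at -0.10 with the values as deposited. Control of the members by Srebf1 was not tested. In control effector against naive cells 3 of the 11 listed genes were higher and 1 lower, where 15.9% of all genes were higher and 11.4% lower. The higher were the SREBP target Hmgcs1 (18454 against 2785), Insig1, which holds SREBP in the endoplasmic reticulum and is itself a target (3340 against 1032), and Srebf2 (2018 against 951). The site-1 protease gene Mbtps1, which cleaves SREBP, was lower (1500 against 3231), a share of the list near that of all genes.

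In Rap against control effector cells, 2 of the 11 were lower and 1 higher, where 3.91% of all genes were lower and 1.82% higher. The lower were Hmgcs1 (7139 against 18454) and Insig1 (1643 against 3340), with a list median of -0.41. Nr1h3, which encodes the LXR alpha receptor, was at least 2-fold higher in both TOFA (99.1) and Rap effector cells (94.1), against 42.7 in control effector cells, which is under the floor. It was at 567 in memory and 83.3 in naive cells. The list median was -0.08 in TOFA effector cells, with Nr1h3 the only call, where 2.47% of all genes were higher and 2.15% lower. In memory against control effector cells Nr1h3 was higher, beside myeloid marker sums of 74109 against 395, whose part in the result was not tested. Hmgcs1, Insig1, Srebf2 and Srebf1 were lower, where 14.1% of all genes were lower and 14.5% higher. Against naive cells Nr1h3 alone was called in memory cells, a share near the 12.6% of all genes that were higher. In TOFA against Rap effector cells 0 of the 11 were called, where 3.28% of all genes were higher and 1.35% lower.

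**Figure D4:**
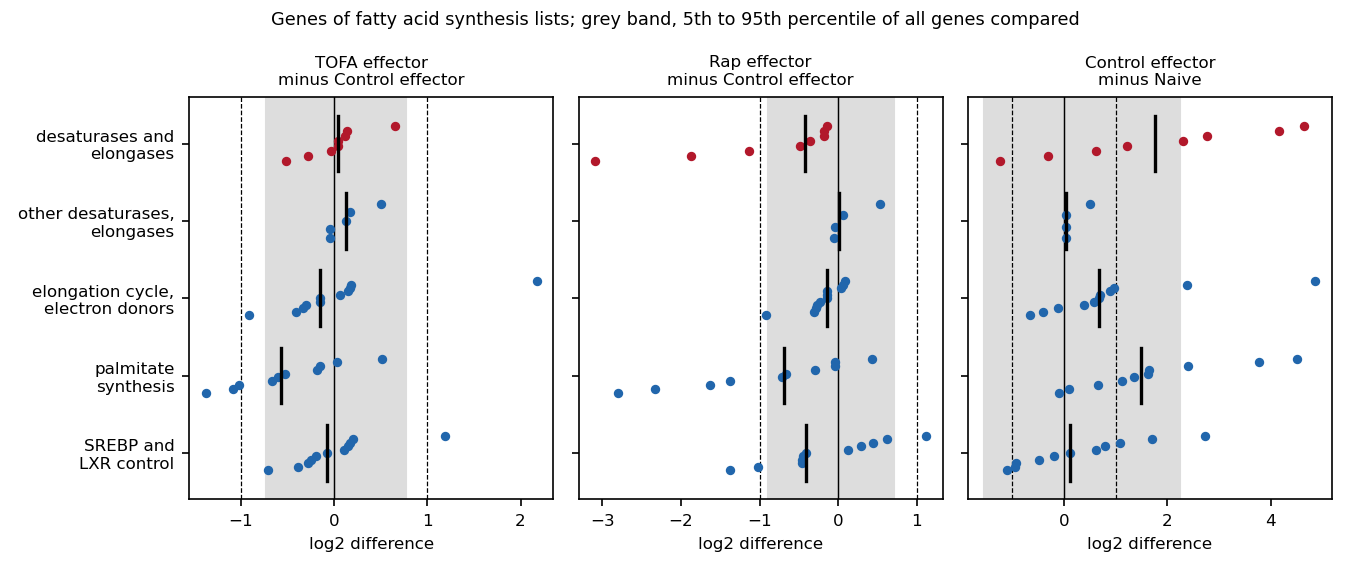
Log2 differences of each gene in the 5 lists, for TOFA effector and Rap effector minus control effector cells and for control effector minus naive cells. Points are genes (red, the desaturases and elongases described here), black bars list medians, the grey band the 5th to 95th percentile of all genes compared, and dashed lines 2-fold. The median of the red points is 0.04 with TOFA, -0.42 with Rap and 1.77 for control effector minus naive cells.

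The genes whose profile over the 5 arrays lay nearest to each called member were found among 9323 genes above the floor on all arrays, by the root mean square distance of log2 signals centred on their mean. This is a description over 5 arrays with no test. For Scd2 they were Fdps, which makes farnesyl diphosphate for sterols (distance 0.23), Pla2g12a (0.25) and Ppp1r3b, a targeting subunit of protein phosphatase (0.33). Fdps had signals of 7801 in TOFA effector, 3685 in Rap effector, 723 in memory, 9869 in control effector and 667 in naive cells. For Scd1 the nearest lay further off: Avpi1 (0.59), Rnase4 (0.64) and Sec24d, a coat protein of vesicles leaving the endoplasmic reticulum (0.66).

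For Elovl6 the nearest were Noct (0.15), Ube2t, a ubiquitin-conjugating enzyme of DNA repair (0.15), and Zranb3, a replication fork enzyme (0.16). Ube2t had signals of 1272 in TOFA effector, 1428 in Rap effector, 166 in memory, 2079 in control effector and 272 in naive cells. For Fads1 they were Map2k1, a kinase upstream of ERK (0.04), Bivm (0.07) and Sirt3, a mitochondrial deacetylase (0.07). For Elovl7 they were the ribosomal protein gene Rps27 (0.18), Zfp119b (0.22) and Tmlhe, an enzyme of carnitine synthesis (0.25). Fads2 and Fads3 were not above the floor on all arrays and were left out of these distances, so their likeness to Scd2 was not measured. Among the other members Scd2 lay nearest to Elovl6 (0.69), with 136 other genes nearer to Scd2, and Scd1 and Scd2 were 1.77 apart. Closer than Scd2 and Elovl6 were Fads1 and Elovl1 (0.23), Elovl7 and Elovl5 (0.59), and Fads1 and Elovl5 (0.62). For these, 330, 1368 and 5545 other genes were nearer to the first named.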

How the data were processed

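The deposited table gives an intensity for each probe set on a linear scale. Per the submitters' processing notes, GCOS and Affymetrix Expression Console were used, with version and algorithm not given in the sources used here. On each array the mean without the lowest and highest 2% was 500.003, which is a scaling to a common target. Array medians still lay up to 0.66 apart (log2), over a limit of 0.5, so quantile normalization over the 5 arrays was applied and the unnormalized signals were kept as an alternative. The floor was the 40th percentile (signal 43.4). Control probe sets (64) were left out. Of the other 45037, 34945 carried a single symbol in the 2016 platform annotation, 932 carried several and 9160 none. Entrez identifiers matched RefSeq for 34741, which changed 0 symbols. Each of 18193 genes was represented by its probe set of highest mean floored log2 signal, and 14522 genes passed the floor somewhere.

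A single array per group allows no test and limits the precision of all values. The members and lists were chosen with earlier results of these data known. Genes named beside the 9 members are those at least 2-fold apart from each pathway list, and the 3 nearest profiles of each called member above the floor everywhere. Where no gene of a list was called, the 2 furthest apart were to be named. This was done for the elongation cycle in Rap against control effector cells only. Degs1, Scd3 and Elovl4 are named for their signals. The results were also computed with the signals as deposited, a floor at the 20th or at the 60th percentile, averaging over probe sets, dropping probe sets ending in _x_at or _s_at, and an added constant. Normalization without the memory array was added after the data were seen. Calculations ran in Python 3.11.15 with pandas 2.3.3 and numpy 2.4.6 and were tested on simulated data. Promoter windows came from RefSeq (GRCm38.p6).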

Additional observations from a re-analysis of the deposited data

How the results depend on the processing

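No paired analysis was possible because each group had 1 array. Over all alternatives, the count of members at least 2-fold lower in Rap against control effector cells was 3 and the count in TOFA against control effector cells was 0 in both directions, also when the arrays were normalized without the memory array. In the Rap count Scd2 was barely past 2-fold with the values as deposited, at -1.005. Of the 120 counts and medians of members recomputed, 109 kept their value within 1.5 times or within the probe set SD, and 11 counts did not. With the values as deposited, 2 members were higher in TOFA against Rap effector cells, 1 was higher in memory against control effector cells and 2 in memory against naive cells. The last count was also 2 with a floor at the 20th percentile. With an added constant, the count higher in memory cells was 1 against control effector and 2 against naive. With the mean of all probe sets, 0 members were lower in control effector against naive cells, and 0 were higher and 0 lower in memory against naive cells. Without _x_at and _s_at probe sets, 0 members were lower in control effector against naive cells and 0 in memory against naive cells, since Elovl7 was then at -0.99 and -0.81. As a mean of probe sets, Fads1 was 0.83 in control effector against naive cells and Scd1 was 0.95 in memory against naive cells. The differences of Fads2 from naive and memory cells depend on the floor: with it at the 60th percentile, control effector against naive cells gave 2.86, and with it at the 20th percentile, memory against control effector cells gave -5.44. With 1 array per group, signals near the floor (Fads3, Elovl7, and Fads2 in naive and memory cells) limit what can be read.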
